A study of Mus musculus with 4 samples.

Results

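The genes described here are the core of the hedgehog signalling pathway: the ligand Shh, the receptor Ptch1, the ligand-binding inhibitor Hhip, the co-receptor Boc, the signal transducer Smo, the inhibitor Sufu and the transcription factors Gli1, Gli2 and Gli3. They were taken by symbol from a deposited comparison of 26815 entries. All 9 genes matched 1 entry each, and all 9 were among the 15315 entries that the authors tested.

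In this pathway a secreted hedgehog protein binds Ptch1, which otherwise holds Smo inactive, and Boc helps to present the ligand. Active Smo, working at the primary cilium, releases Gli2 and Gli3 from Sufu, and the released factors switch on target genes that include Gli1, Ptch1 and Hhip. In the embryonic forebrain, sonic hedgehog is known for patterning ventral tissue and for maintaining neural progenitors.

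The cells were cortical neural stem cells of CD-1 mice at stage E14.5, a purchased stock grown as a monolayer on poly-L-ornithine and laminin with EGF and bFGF. Both groups received a lentivirus and were selected with 0.5 µg/mL puromycin while they were expanded. The control group carried the scrambled shRNA SHC002 and the other group carried an shRNA against the transcription factor Foxp1, with 2 libraries in each group from cultures of different passages. Each group rests on a single shRNA, so an effect of that sequence and an effect of Foxp1 loss cannot be told apart.

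Polyadenylated RNA was sequenced, and the values came as 1 ratio per entry between pooled conditions coded q1 and q2. No label or header says which code is which shRNA, so each direction below is q2 relative to q1. Values per library and per condition were not used here. Read depth is therefore unknown, and the spread between replicates cannot be printed. An error was instead implied from each log2 fold change divided by its Cuffdiff statistic, and the intervals below are 95% intervals that treat these errors as normal. Foxp1 itself, at chromosome 6, 98925342 to 99435345 (GRCm38), had a log2 fold change of -2.03 in the authors' deposited table, 4.09-fold lower in q2 (Cuffdiff q = 0.00162).

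Among the 9 hedgehog genes, the authors' deposited table called Shh, Hhip and Gli1 higher in q2 and called none lower, at a Cuffdiff q under 0.05. By the authors' deposited table, the ligand was 6.20-fold, its inhibitor Hhip 4.91-fold and the transcription factor Gli1 16.6-fold higher. Ptch1, Boc, Smo, Sufu, Gli2 and Gli3 were not called. The background for these and all later counts at that q is that 4.24% of all tested entries were called higher and 3.39% lower, or 7.63% in either direction. At an unadjusted p under 0.05, 5 of the 9 genes were on the higher side and 0 on the lower, against 9.46% and 9.74% of all tested entries, the background for all counts at that p. All counts at that p use the deposited Cuffdiff p-values, which for Gli2 and Ptch1 were 0.0089 and 0.0098. A normal distribution gives 0.067 and 0.069 for the same statistics, so these 2 of the 5 pass by the deposited p only. On the log2 scale of the authors' deposited table the median of the 9 genes was 0.60, against -0.05 over the tested entries with a finite value, and 8 of the 9 were above 0. Of all 15315 tested entries, 6998 were above 0.

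**Figure D1:**
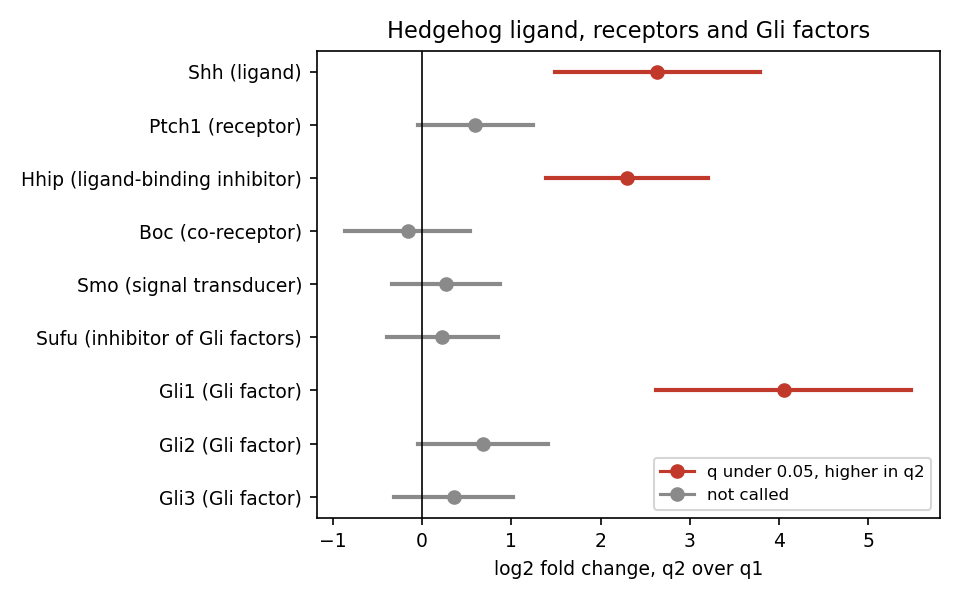
The 9 hedgehog genes (rows, with their roles) by log2 fold change, q2 over q1 (x axis); points are values of the authors' deposited table, bars are the 95% intervals from the implied errors, and red marks a q under 0.05. The intervals of Shh, Hhip and Gli1 lie above 1 and those of the other 6 genes cross 0.

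RefSeq windows on GRCm38.p6, running from 250 bases before to 50 after a gene's start, were matched by symbol for 6 of the 9 genes (Ptch1, Hhip, Smo, Sufu, Gli2 and Gli3), and Shh, Gli1 and Boc had no entry. The upstream 250 bases are shown for 3 of them. Hhip is the called gene with a window, Ptch1 has a called entry reaching into its window, and Gli2 has the most copies of the Gli core letters. All are on the minus strand and are written 5′ to 3′ along the gene. In Hhip and Gli2 the capitals mark CCACCC or, for the other strand, GGGTGG, and in Ptch1 they mark the stretch inside the called entry.
Ptch1, chr13:63565736-63565985: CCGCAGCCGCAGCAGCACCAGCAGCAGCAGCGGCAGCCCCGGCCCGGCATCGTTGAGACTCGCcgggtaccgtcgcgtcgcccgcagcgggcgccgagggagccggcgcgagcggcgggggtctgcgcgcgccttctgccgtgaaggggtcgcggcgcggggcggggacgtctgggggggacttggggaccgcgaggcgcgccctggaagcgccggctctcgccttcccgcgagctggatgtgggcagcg
Hhip, chr8:80058009-80058258: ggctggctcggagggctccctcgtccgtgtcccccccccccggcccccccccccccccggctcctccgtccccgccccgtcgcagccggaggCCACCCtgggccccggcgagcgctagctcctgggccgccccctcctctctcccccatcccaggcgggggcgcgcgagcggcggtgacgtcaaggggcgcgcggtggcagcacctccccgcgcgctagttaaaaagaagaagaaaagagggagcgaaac
Gli2, chr1:119053620-119053869: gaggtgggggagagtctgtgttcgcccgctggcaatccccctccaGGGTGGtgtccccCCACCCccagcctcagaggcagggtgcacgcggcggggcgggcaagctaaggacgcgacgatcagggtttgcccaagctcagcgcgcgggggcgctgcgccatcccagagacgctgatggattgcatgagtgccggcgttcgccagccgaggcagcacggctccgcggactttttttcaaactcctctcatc

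The Gli consensus GACCACCCA, searched on both strands, was in 0.253% of all 32851 windows of this length (83 windows) and in 0 of the 6 hedgehog windows. Its inner letters CCACCC, which overlap the consensus, were in 31.5% of all windows and in 4 of the 6. They began 158 bases before the start of Hhip, 162 before Smo, 170 before Gli3, and 192 and 205 before Gli2. Ptch1 and Sufu had no match, which says only that these letters are not in their windows. The windows of Ptch1, Hhip, Gli3, Smo and Gli2 were rich in G and C, at 76.3%, 73.7%, 71.0%, 67.7% and 67.3% against a median of 52.7% over all windows, and that of Sufu had 56.3%. A matching run of letters is not evidence of binding, and no binding was measured here.

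Shh, the secreted ligand, had a log2 fold change of 2.63 in the authors' deposited table, with an implied SE of 0.59 (Cuffdiff q = 0.00162). The interval on the fold scale ran from 2.80 to 13.8. By log2 fold change it ranked 66 of the 15197 tested entries with a finite value. The authors' locus for Shh, chromosome 5, 28456840 to 28719209 on GRCm38, spans 262 kb, while the GENCODE M21 gene on the minus strand spans 10.4 kb. The locus is shared with an entry for 9530036O11Rik, which lies on the opposite strand in GENCODE. The authors did not test that entry, and the authors' deposited table lists it at a log2 fold change of 1.65. Whether the counting used strand is not given in the sources used here, and overlap of the exons of these genes was not examined. Whether any reads of this neighbour were counted for Shh is therefore not known. The closest tested entries on either side, Rbm33 at -0.08 and Rnf32 at 0.28 on the log2 scale in the authors' deposited table, were not called.

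The other hedgehog ligands could not be compared with Shh, because Dhh and Ihh were not tested by the authors. Hhat, the acyltransferase that adds palmitate to the ligand, its relative Hhatl and the Scube1, Scube2 and Scube3 genes for secreted release factors were not tested either. Of 9 such relatives and release genes, Disp1 and Disp2, members of the Dispatched family that includes the ligand exporter, were tested. Neither was called, and neither had an unadjusted p under 0.05. Disp2 had the larger absolute statistic of the pair, with a log2 fold change of -0.12 in the authors' deposited table (Cuffdiff q = 0.885).

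Ptch1, the main receptor and itself a target of the pathway (chromosome 13, 63508331 to 63565520, minus strand), had a log2 fold change of 0.60 in the authors' deposited table, with an implied SE of 0.33, a 1.51-fold difference. Its interval ran from -0.05 to 1.24, and it was not called (Cuffdiff q = 0.0961).

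Hhip, a membrane protein that binds hedgehog ligands and limits their action, had a log2 fold change of 2.30 in the authors' deposited table, with an implied SE of 0.46 (Cuffdiff q = 0.00162). The fold interval ran from 2.61 to 9.23, and Hhip ranked 113 of 15197. Its locus is chromosome 8, 79965851 to 80058008, on the minus strand, and the flanking tested entries Anapc10 at -0.01 and Smarca5 at -0.24 on the log2 scale in the authors' deposited table were not called. Hhip exceeded Ptch1, the other negative regulator that the ligand binds, by 1.70 on the log2 scale (implied SE 0.57, interval 0.58 to 2.81). Shh and Hhip differed by 0.34 (implied SE 0.75), with an interval from -1.13 to 1.80 that spans 0, a pair chosen after its values were seen.

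Boc, an immunoglobulin superfamily co-receptor (chromosome 16, 44485045 to 44558870, minus strand), was the 1 hedgehog gene of the 9 with a value below 0. Its log2 fold change was -0.16 in the authors' deposited table, with an implied SE of 0.36 and an interval from -0.86 to 0.54 (Cuffdiff q = 0.801). Its locus is shared with an entry for the microRNA gene Mir3081, which is listed at 0 in q2 and was not called. The co-receptors with related roles, Cdon and Gas1, stood at -0.11 and -0.08 on the log2 scale in the authors' deposited table and were not called. Boc differed from Cdon by -0.05 (interval -0.98 to 0.88) and from Gas1 by -0.08 (interval -1.0 to 0.85), so differences of nearly 1 on the log2 scale in either direction remain within these intervals. Of the 4 tested co-receptor and ligand-binding genes outside the 9 (Cdon, Gas1, Lrp2 and Gpc3), 0 were called in either direction. At an unadjusted p under 0.05, 1 of the 4 was higher and 1 lower. Lrp2, an endocytic co-receptor of the forebrain, had the largest absolute statistic of the 4, with a log2 fold change of -0.74 and an interval from -1.52 to 0.03 in the authors' deposited table (Cuffdiff q = 0.0828).

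The genes that carry the signal inside the cell had smaller values. Smo, the membrane protein that Ptch1 restrains (chromosome 6, 29735497 to 29761366, plus strand), had a log2 fold change of 0.27 in the authors' deposited table, with an implied SE of 0.31 (Cuffdiff q = 0.550). Its interval ran from -0.33 to 0.87. Ptch1 exceeded Smo by 0.33 with an interval from -0.55 to 1.21. Sufu, the cytoplasmic inhibitor that binds the Gli proteins (chromosome 19, 46396896 to 46488804, plus strand), had a log2 fold change of 0.23 in the authors' deposited table, with an implied SE of 0.32 (Cuffdiff q = 0.643). Neither gene was called.

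Of 28 tested genes of the primary cilium and of signal transduction, 1 was called higher and 0 were called lower. Over all tested entries these shares were 4.24% and 3.39%. The called gene was Tulp3, which encodes a protein that brings membrane receptors into the cilium. By the authors' deposited table its rise in q2 was 2.24-fold (log2 fold change 1.17, Cuffdiff q = 0.00162). The 28 values ran from -0.51 to 1.17 with a median of 0.09 on the log2 scale in the authors' deposited table. At an unadjusted p under 0.05, 3 of the 28 were higher and 2 lower, against 9.46% and 9.74% of all tested entries.

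The 3 Gli factors were unequal. Gli1, an activator whose own transcription is a common readout of the pathway, had a log2 fold change of 4.05 in the authors' deposited table, with an implied SE of 0.73 (Cuffdiff q = 0.00162). The fold interval ran from 6.15 to 44.7, and Gli1 ranked 12 of 15197 tested entries with a finite value. Its locus, chromosome 10, 127321964 to 127341579 on the minus strand, is shared with an entry for Arhgap9, which was not tested and lies on the opposite strand in GENCODE. The flanking tested entries, Mars at 0.09 and R3hdm2 at -0.07 on the log2 scale in the authors' deposited table, were not called.

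Gli2, the main activator of the family (chromosome 1, 118834061 to 119053619, minus strand), stood 1.60-fold above q1 by the authors' deposited table. Its log2 fold change of 0.68 had an implied SE of 0.37, and it was not called (Cuffdiff q = 0.0908). Gli3, the main repressor (chromosome 13, 15463723 to 15730025, plus strand), had a log2 fold change of 0.35 in the authors' deposited table, with an implied SE of 0.34 (Cuffdiff q = 0.440). Gli1 exceeded Gli2 by 3.37 on the log2 scale (implied SE 0.82, interval 1.76 to 4.98). It exceeded Gli3 by 3.70 (implied SE 0.81, interval 2.12 to 5.27). Gli2 and Gli3 differed by 0.33, with an interval from -0.66 to 1.31 that spans 0.

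**Figure D2:**
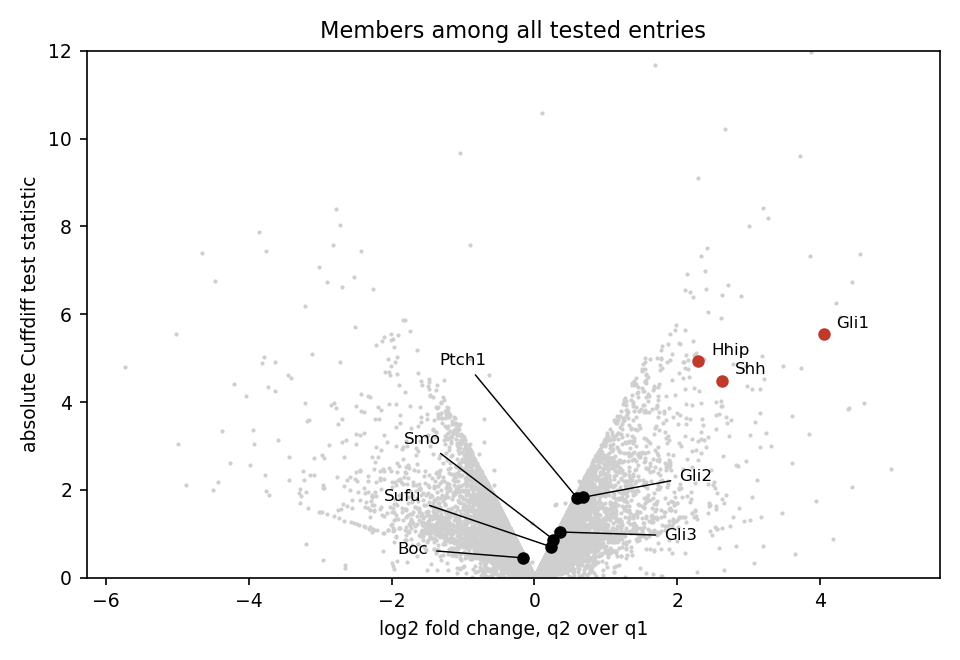
Tested entries of the authors' deposited table by log2 fold change, q2 over q1 (x axis), and absolute Cuffdiff statistic (y axis, shown up to 12, which leaves out 16 entries); grey points are tested entries, red points the called hedgehog genes and black points the other 6. Gli1, Hhip and Shh lie far to the right, and Ptch1 and Gli2 stand beside each other at statistics of 1.82 and 1.83.

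Ordered by log2 fold change in q2, Gli1 was first, followed by Shh, Hhip, Gli2, Ptch1, Gli3, Smo, Sufu and Boc. The 3 called genes had lower interval bounds of 2.62, 1.48 and 1.39. All lay above the upper bounds of Ptch1 at 1.24, Gli3 at 1.02, Smo at 0.87, Sufu at 0.85 and Boc at 0.54. Only the upper bound of Gli2, 1.41, passed the lower bound of Hhip. From Gli2 downwards the intervals of the 6 uncalled genes overlapped each other.

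The authors' Ptch1 entry ends 215 bases inside the RefSeq start, and 2 entries with no symbol lie at or near that start. The first, 194 bases long at chromosome 13, 63565595 to 63565788, covers 141 bases of the first exon of the transcript Ptch1-201. It had a log2 fold change of 0.51 in the authors' deposited table and was not called (Cuffdiff q = 0.714). The other, 349 bases long at 63565923 to 63566271, lies 188 to 536 bases before the RefSeq start, and its near end is the capital stretch of the Ptch1 sequence above. This entry was called higher by the authors' deposited table, at 2.05-fold (log2 fold change 1.03, implied SE 0.42, Cuffdiff q = 0.0173). It overlaps 0 bases of annotated Ptch1 exons and falls in an intron of the longer transcripts Ptch1-204 and Ptch1-205, whose first exons begin further upstream. The files give no strand for it, so whether it belongs to Ptch1 is not known. The entry was chosen after its position and values were seen.

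**Figure D3:**
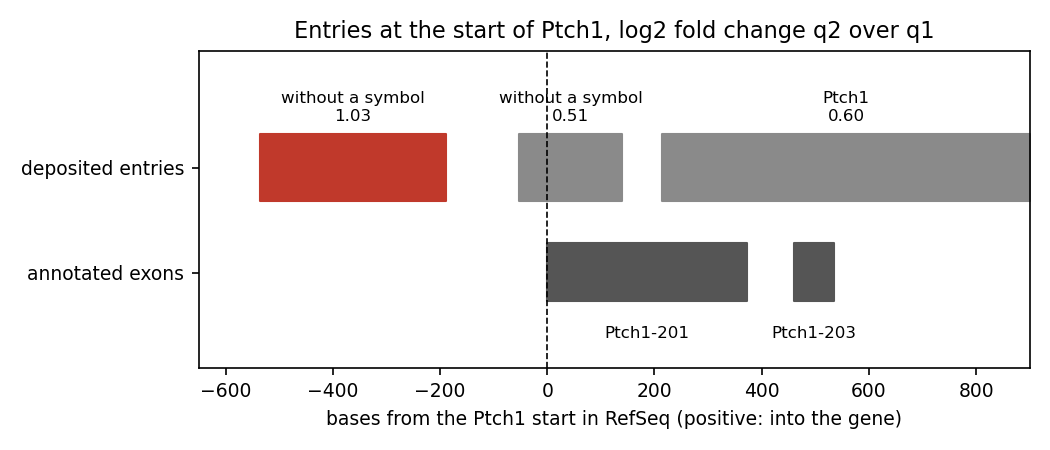
Deposited entries (upper row, with their log2 fold change of q2 over q1) and annotated exons (lower row) around the start of Ptch1, by distance in bases from the RefSeq start, with positive values into the gene. Red marks the called entry, 188 to 536 bases before the start, and grey the entries that were not called.

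Genes that hedgehog signalling is known to control in neural or other tissues were counted next. Of 10 tested targets, Cdk6, Prdm1 and Nkx2-2 were called higher in q2 and 0 were called lower. Over all tested entries 4.24% were called higher and 3.39% lower. At an unadjusted p under 0.05, 5 of the 10 were higher and 3 lower, and their median log2 fold change was 0.19 in the authors' deposited table. Cdk6, a cyclin-dependent kinase of the cell cycle, had a 4.11-fold rise by the authors' deposited table (Cuffdiff q = 0.00292). Prdm1, a zinc-finger repressor, had a 4.0-fold rise by the authors' deposited table (Cuffdiff q = 0.00162). Nkx2-2, a homeobox factor of ventral progenitors, had a 2.38-fold rise by the authors' deposited table (Cuffdiff q = 0.0262). Its call is lost once the trend of fold change with transcript GC content is removed (log2 fold change 0.92, q = 0.143) or with p-values from a normal distribution (q = 0.292). The authors' locus for this minus-strand gene runs from 147177546 to 147331681 on chromosome 2, and its RefSeq window ends at 147186652. The locus thus reaches far beyond the gene's start. Separate entries can share a locus, as Shh and 9530036O11Rik do, so its span does not show which stretches were counted for Nkx2-2.

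Other targets did not pass the threshold. Mycn, a transcription factor of progenitor growth, had a log2 fold change of 1.44 in the authors' deposited table (Cuffdiff q = 0.0951). Ccnd1, the G1 cyclin D1, had 0.63 (Cuffdiff q = 0.0671 in the authors' deposited table). Its relative Ccnd2 stood at -0.51, Sfrp1 at -0.53 and the oligodendrocyte lineage factor Olig2 at -0.53 on the log2 scale in the authors' deposited table. Foxf1, Foxa2, Snai1, Nkx2-1, Nkx6-1 and Igf2 were not tested by the authors. Over the 4 lists of ligand, receptor, transduction and target genes together, 4 of 44 tested genes were called higher and 0 lower, and 23 of the 44 had values above 0. Of all 15315 tested entries, 4.24% were called higher and 3.39% lower, and 6998 had values above 0. At an unadjusted p under 0.05, 9 of the 44 were higher and 6 lower, against 9.46% and 9.74% of all tested entries. Their median was 0.05 on the log2 scale of the authors' deposited table.

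**Figure D4:**
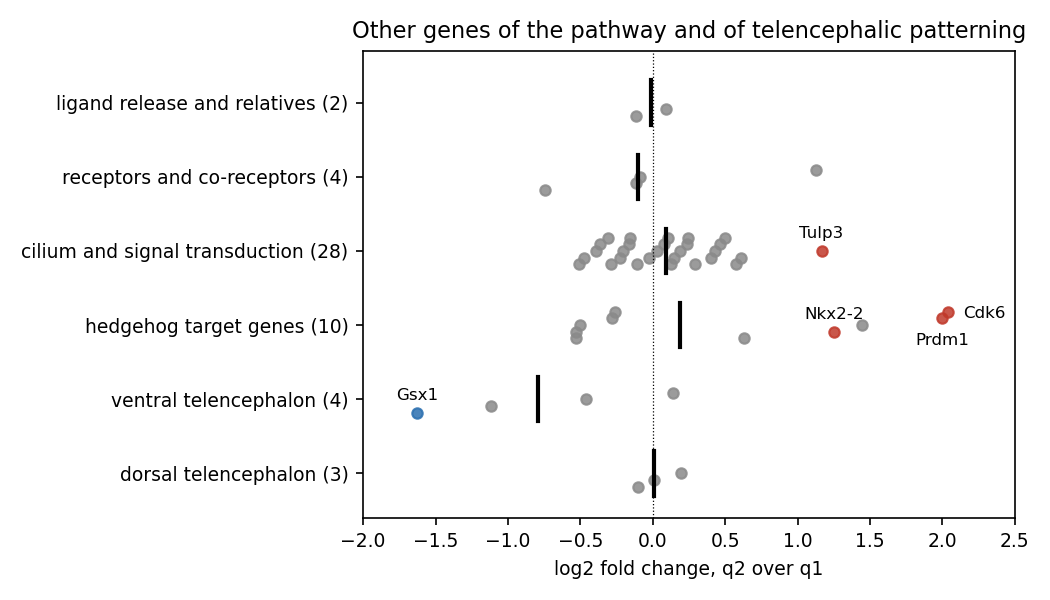
Tested genes of each list (rows, number tested in brackets) by log2 fold change, q2 over q1, from the authors' deposited table (x axis); points are genes, red called higher, blue called lower and grey not called, with the list median as a black bar. Cdk6, Prdm1, Nkx2-2 and Tulp3 are the called genes of the pathway lists, and the median of the 28 transduction genes is 0.09.

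Patterning genes of the embryonic telencephalon were set beside the pathway, since hedgehog signalling is known for its part in ventral identity. Of 4 tested ventral genes, Gsx1, a homeobox factor of ganglionic eminence progenitors, was called lower in q2 and 0 were called higher. The shares over all tested entries were 3.39% and 4.24%. Gsx1 fell to a log2 fold change of -1.63 in the authors' deposited table, 3.09-fold lower (Cuffdiff q = 0.00418). With p-values from a normal distribution its call is lost (q = 0.107). At an unadjusted p under 0.05, 3 of the 4 ventral genes were lower and 0 higher. Of 3 tested dorsal genes, 0 were called, and 0 had an unadjusted p under 0.05. Lhx2, a LIM homeobox factor of the cortex, had the largest absolute statistic of these 3, with a log2 fold change of 0.20 in the authors' deposited table.

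Markers of cell types moved in the same comparison, where 4.24% of all tested entries were called higher and 3.39% lower. Of 9 tested neural stem cell markers, Nes and Sox1 were called higher and Fabp7 and Hes5 lower. Of 7 astrocyte markers 6 were called lower and 0 higher, with a median log2 fold change of -1.17 in the authors' deposited table. Among 6 tested oligodendrocyte lineage markers 3 were called lower and 1 higher, and among 4 neuronal markers 1 was called in each direction. Some of these calls are lost with p-values from a normal distribution, as that of Gsx1 was at an unadjusted p of 0.0039. The astrocyte markers Gja1, Slc1a2 and Aldh1l1 had larger normal p-values of 0.0050, 0.0056 and 0.036. So did Nes at 0.019, Hes5 at 0.019 and the oligodendrocyte marker Mbp, called higher, at 0.038. Of 4 tested fibroblast and mesenchymal markers 3 were called higher and 0 lower, with values from 0.43 to 1.78 on the log2 scale in the authors' deposited table. Of 5 endothelial and 5 microglial markers, 1 and 2 were tested and none was called or had an unadjusted p under 0.05. In bulk RNA a changed share of cells of a type and a changed amount of RNA per cell cannot be told apart, and levels of these markers were not used. Of the untested markers, the deposited ratios put the fibroblast gene Col1a2 at 0 in q2 and the endothelial gene Cdh5 at 0 in q1. The part of these markers in the hedgehog values was not tested.

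Fold changes followed transcript GC content over all genes, and removing that trend moved the values of called and uncalled genes. The transcripts of Smo, Sufu, Boc, Gli1 and Gli2 had a GC content of 56.8%, 55.8%, 55.9%, 57.2% and 58.7%, against a median of 50.6% over the tested genes. Those of Hhip were lower, at 42.4%. With the trend of fold change with GC content removed, the log2 fold change of Gli2 was 0.42 in place of 0.68, that of Smo 0.08 in place of 0.27, and that of Sufu 0.02 in place of 0.23. Boc then stood at -0.37 and Ptch1 at 0.66. Gli1, Shh and Hhip were at 3.82, 2.53 and 2.56 in place of 4.05, 2.63 and 2.30, and were called in each alternative that was run. Their deposited q and fold changes fixed that outcome in advance for the other q thresholds and the minimum fold change. The authors' own test called 5 of the 9 genes higher and 0 lower at a q under 0.1, with Gli2 and Ptch1 added, where 5.52% of all tested entries were called higher and 4.94% lower. P-values from a normal distribution gave these genes q = 0.589 and q = 0.598, further from the threshold than in the authors' deposited table.

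**Figure D5:**
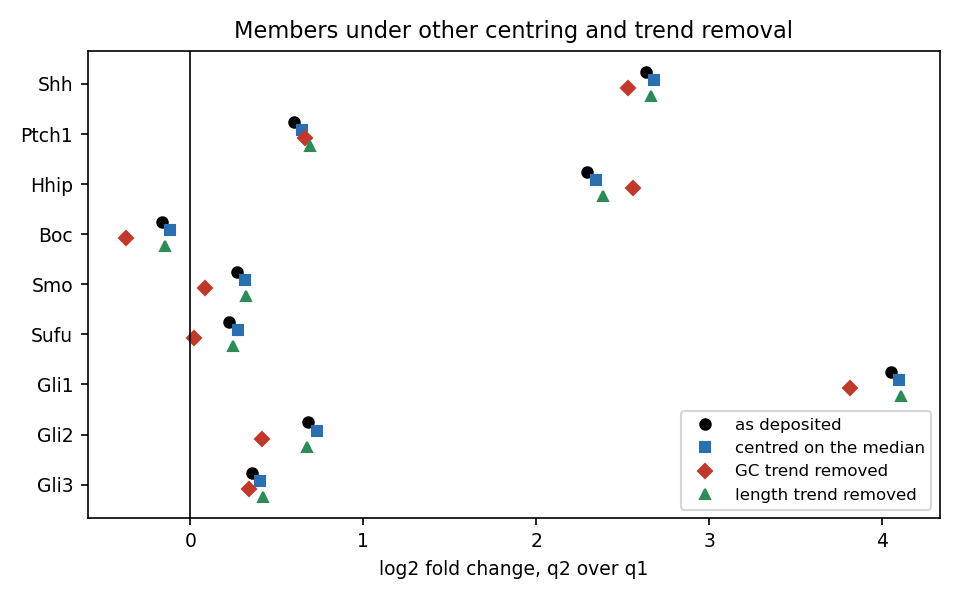
The 9 hedgehog genes (rows) by log2 fold change, q2 over q1 (x axis), as deposited and after centring on the median or removal of the GC or length trend. Gli1, Shh and Hhip stay above 2 throughout, while Smo and Sufu come to 0.08 and 0.02 with the GC trend removed.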

How the data were processed

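The 4 libraries were grouped by their sample titles. The submitters' processing notes name build mm10 (GRCm38), TopHat2 2.0.9, Cuffdiff and Cufflinks 2.2.1. The version of Cuffdiff, the annotation, filters and strand setting were not given in the sources used here. The authors deposited 1 table of 26815 entries, 11500 of them not tested. Its log2 fold changes are of q2 over q1 and its test statistic is a score, per the file headers. The authors also deposited p-values and q-values, with a smallest p of 5e-05 that 472 entries share, so the smallest q does not rank genes. They measure at most the spread between these cultures, and read depth is unknown. The 2 columns of per-condition values were not used.

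Calls are the authors' q under 0.05. Implied errors, intervals, differences and ranks were computed here. Start coordinates were converted to count from 1. Genes, lists and tests were chosen with earlier results of these data known. Named are the 9 genes, Foxp1, every called gene of each list or, where there was none, the tested gene with the largest absolute statistic, and the closest tested neighbours of called genes; other named genes were chosen after their values were seen. A gene that this rule takes is not reported here and was left out of its list. Promoter windows are from RefSeq; transcript GC content and length are from GENCODE M21, matched by symbol for 11562 of 12159 tested single-symbol genes. GC and length trends were removed as medians in 50 bins, and p was then taken from an isotonic fit of the deposited p on the absolute statistic. These steps were tested on simulated data with normal p-values. The deposited p does not always fall as the statistic rises, and the simulation did not cover that. Alternatives were other q thresholds, a minimum fold change, normal p-values, centring, single-symbol entries and trend removal. Software was matplotlib 3.10.9, pandas 2.3.3, numpy 2.4.6, scikit-learn 1.9.0, scipy 1.17.1 and Python 3.11.15.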

Additional observations from a re-analysis of the deposited data

How the results depend on the processing

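No paired analysis was possible because values per library were not used here, and for the same reason no replicate could be left out in turn. Of 123 recomputed values, 118 kept their direction and their side of the threshold or, for a count of calls, stayed within 1.5 times the reported one. The 118 include outcomes fixed in advance. Centring cancels in a difference between genes, and a count of 0 stays 0 under a stricter threshold. The calls of Shh, Hhip and Gli1 could not be lost at a q under 0.01 or with an absolute log2 fold change of at least 1. The pathway genes called higher numbered 3 in place of 4, without Nkx2-2, at a q under 0.01, with p-values from a normal distribution before or after centring, and with the GC trend removed. At a q under 0.1 the hedgehog genes called higher numbered 5 in place of 3, and in the 4 pathway lists 6 genes in place of 4 were called higher, with Ccnd1 and Mycn added, and 1 gene, Lrp2, lower in place of 0, where 5.52% of all tested entries were called higher and 4.94% lower. With the GC trend removed, 1 gene of these lists, Olig2, was called lower, and 2 differences reversed: Boc minus Gas1 came to 0.046 in place of -0.078, and Shh minus Hhip to -0.030 in place of 0.337. The cause was not tested. Over all entries 1168 were called in the authors' deposited table, against 667 at a q under 0.01, 687 with an absolute log2 fold change of at least 1, 425 with p-values from a normal distribution, 438 with these after centring on the median, and 759 of 11562 genes with the GC trend removed. That last fit tested fewer genes, and without the correction it called 972. Read depth is unknown, so what it limits could not be assessed.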

Other observations

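Several hedgehog relatives that the authors did not test carry a ratio with no error. Dhh, the ligand best known from testis and peripheral nerve, had a log2 fold change of 1.16 and the acyltransferase gene Hhat 1.30 in the authors' deposited table. Snai1, a repressor of epithelial genes, had 2.05, while Scube2 had -0.78, in the authors' deposited table. Ihh, the ligand best known from cartilage, is listed at 0 in q2. Gpc3, a cell-surface glypican that binds hedgehog ligands, was tested and had a log2 fold change of 1.13 with an interval from -0.23 to 2.48 in the authors' deposited table (Cuffdiff q = 0.190). Rab34, a GTPase of ciliogenesis, has 2 entries at the same locus, listed by the authors' deposited table at log2 fold changes of 0.65 and 1.15 (Cuffdiff q = 0.129 and 0.378), and it was left out of the counts of target genes. Foxm1 was left out too, because its entry is merged with 4933413G19Rik. That entry had a log2 fold change of 0.07 in the authors' deposited table and was not called (Cuffdiff q = 0.921).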
